A study of Mus musculus with 12 samples.

Results

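The genes described here are 8 markers of ionocytes, the mitochondria-rich cells of ducts and airways that move ions and protons across an epithelium: the transcription factors Foxi1, Foxi2 and Ascl3, the chloride channel Cftr, the proton pump subunits Atp6v1b1, Atp6v1c2 and Atp6v0d2, and the adaptor protein Stap1. They were picked by name from a table of 56065 genes, and all 8 had enough reads in the mouse submandibular gland (SMG) to be among the 17893 genes tested. Bulk RNA-sequencing was performed on 12 SMGs from young adult mice of the same age, 3 mice in each of 4 groups: C57BL/6J females and males, called wild type, and females and males of C57BL/6J-Pou2f3em1Cbwi/J, called Pou2f3-/-. The knockout lacks in every cell the transcription factor that defines tuft cells. Both strains came from one supplier, and the sources used here do not describe the wild-type mice as littermates of the knockouts. The library names are numbered in blocks by group, so that processing order and group cannot be told apart.

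Foxi1 is known as the master transcription factor of ionocytes and of the intercalated cells of the kidney, where it switches on chloride transporters and the vacuolar proton pump (V-ATPase). This pump has a cytoplasmic part that hydrolyses ATP and a membrane part that carries protons, and several subunits exist as a widely used isoform and as one restricted to few cell types. In salivary glands ionocytes lie in the ducts, where Ascl3 marks them and some duct progenitors. Cftr, the channel mutated in cystic fibrosis, is also used by other duct cells, Atp6v0d2 by macrophages and osteoclasts, and Stap1 by blood cells.

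Library totals ranged from 47031917 to 67881902 estimated counts. The factors of the trimmed mean of M values (TMM), which correct for a few very abundant RNAs, differed by group. They were 0.625 to 0.759 in wild-type females and 0.902 to 1.03 in Pou2f3-/- females. In males they were 1.04 to 1.45 in wild type and 1.11 to 1.25 in Pou2f3-/-. The targeted gene could not check the labels: Pou2f3 had at most 2 counts in any wild-type female, 0 in each Pou2f3-/- female, at most 10 in a wild-type male (replicate 2, with 1 and 0 in the others) and at most 3 in a Pou2f3-/- male. Where no read was counted, up to 3 counts remain possible, a limit of 0.0399 to 0.0782 counts-per-million (CPM) that accounts for counting error alone. The duct keratins Krt7, Krt8 and Krt18 were well above that limit in all 12 libraries. In bulk tissue fewer cells of a type and less RNA per cell cannot be told apart. Levels are TMM-adjusted CPM, given for replicates 1, 2 and 3 in turn, and log2 fold changes, standard errors (SE) and adjusted p-values come from the quasi-likelihood test of edgeR, adjusted over the 17893 genes by the Benjamini-Hochberg method.

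In wild-type males, the level per kilobase (kb) of transcript was highest for Atp6v0d2, at 20.3 ± 3.4 CPM per kb (SD, n = 3). Ascl3 followed at 10.7 ± 3.1, Cftr at 7.77 ± 0.98, Foxi1 at 6.76 ± 0.42, Atp6v1b1 at 5.35 ± 0.58, Atp6v1c2 at 4.78 ± 0.64, Stap1 at 3.16 ± 0.46 and Foxi2 at 3.14 ± 0.22. Of the neighbours in this order from Ascl3 downward, Foxi1 and Atp6v1b1 were apart by more than their SDs, as were Atp6v1c2 and Stap1, and the rest were not. The order depends on the length used: per kb of all exons joined, Atp6v1b1 was at 2.44 and Stap1 at 1.70 CPM per kb, below Atp6v1c2 (4.05) and Foxi2 (3.14), and Cftr (6.42) was below Foxi1. In wild-type females Atp6v0d2 was again highest, at 9.14 ± 1.84 CPM per kb, and Atp6v1c2 was lowest, at 1.26 ± 0.33. The remaining female levels were 6.56 ± 1.76 for Ascl3, 5.59 ± 1.2 for Atp6v1b1, 4.14 ± 0.65 for Stap1, 3.11 ± 0.37 for Foxi1, 1.86 ± 0.54 for Cftr and 1.81 ± 0.07 for Foxi2, and the levels of Cftr and Foxi2 did not differ beyond their spread. Per kb of all exons joined, Atp6v1b1 (2.55) and Stap1 (2.23) were below Foxi1 in wild-type females.

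**Figure D1:**
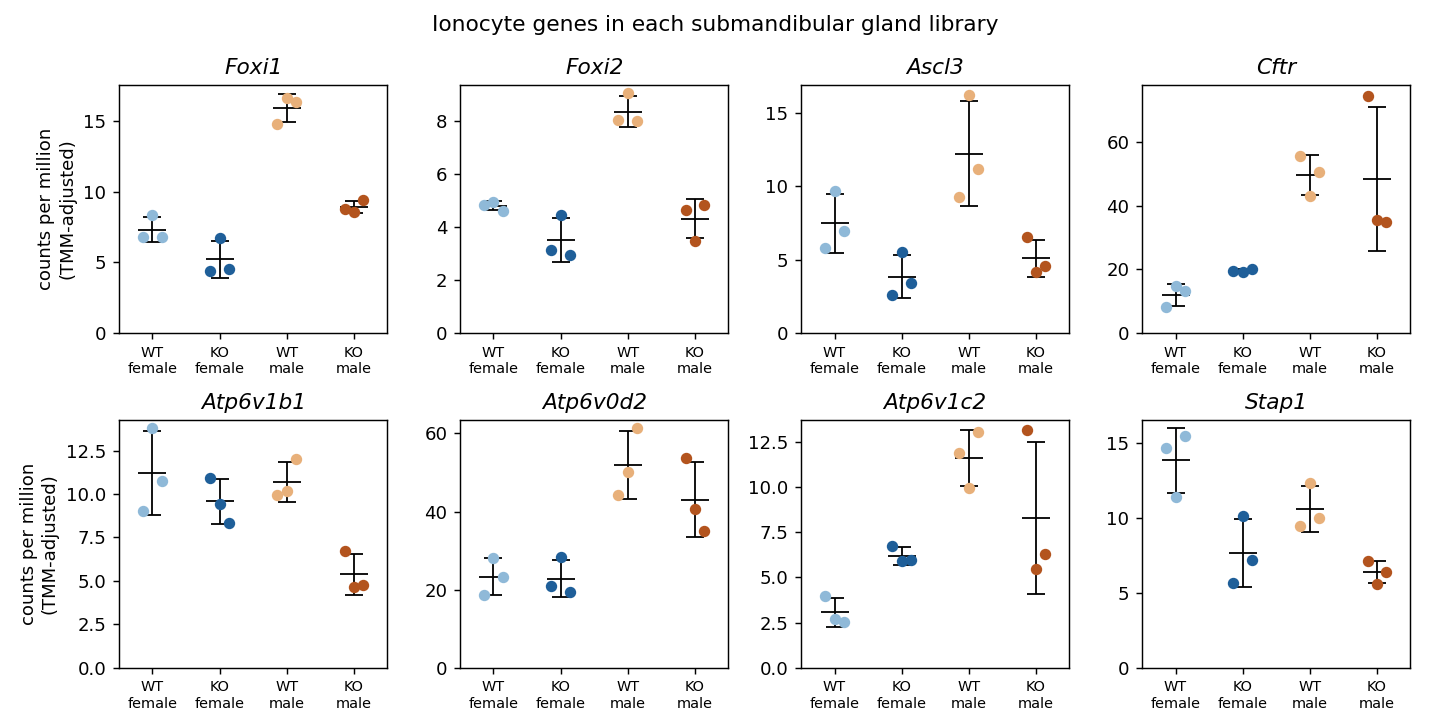
Level of each ionocyte gene, in TMM-adjusted CPM on linear axes that start at 0, in the 3 mice of each group (points); the bar and whiskers are the mean and SD. In males, all Pou2f3-/- points of Foxi1, Foxi2, Ascl3, Atp6v1b1 and Stap1 lie below all wild-type points, and 1 Pou2f3-/- male stands high in Cftr (74.7) and Atp6v1c2 (13.1).

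The first comparison asks how the ionocyte genes differ between Pou2f3-/- and wild-type males. All 8 log2 fold changes were negative, with a median of -0.78 against -0.04 over all genes tested. Of the 8, 3 fell (Foxi1, Foxi2 and Atp6v1b1), where 0.235% of all genes passed the test in either direction and 0.134% were lower. For 5 of the 8, the groups did not overlap and Pou2f3-/- males were lower, as for 7.95% of all genes; for none were they higher without overlap, as for 6.51% of all genes.

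Foxi1 was measured at 14.8, 16.6 and 16.4 CPM in wild-type males and at 8.83, 8.61 and 9.42 CPM in Pou2f3-/- males. The groups were far apart, with little spread within each. Its log2 fold change was -0.83 (SE 0.15, adjusted p = 0.043), or 0.562-fold. Foxi2, a forkhead factor of the same family, was at 8.02, 9.04 and 7.99 CPM in wild-type males and at 4.63, 3.47 and 4.82 CPM in Pou2f3-/- males, again without overlap. Its log2 fold change was -0.95 (SE 0.17, adjusted p = 0.037). Ascl3, a basic helix-loop-helix factor, was at 9.27, 16.2 and 11.1 CPM in wild-type males and at 6.52, 4.18 and 4.54 CPM in Pou2f3-/- males. Its estimate was larger, at -1.26, but the mice varied more (SE 0.29), and it did not pass the test (adjusted p = 0.11).

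Atp6v1b1 is the restricted isoform of subunit B in the cytoplasmic part of the pump. It was at 9.95, 10.2 and 12.04 CPM in wild-type males and at 6.75, 4.64 and 4.76 CPM in Pou2f3-/- males. Every Pou2f3-/- male was below every wild-type male, and the log2 fold change was -0.99 (SE 0.18, adjusted p = 0.047). Stap1 was at 9.44, 12.3 and 9.99 CPM in wild-type males and at 7.15, 5.63 and 6.41 CPM in Pou2f3-/- males. These groups did not overlap either, but the difference of -0.73 (SE 0.20) did not pass the test (adjusted p = 0.16). Of 6 B cell markers, 5 had at most 9 counts in any male library. The sixth, Blnk, a signalling adaptor, was at 8.27, 7.96 and 9.20 CPM in wild-type males and at 5.91, 6.68 and 6.13 CPM in Pou2f3-/- males, lower without overlap as Stap1 was, and did not pass the test (log2 fold change -0.44, adjusted p = 0.42). The summed level of the 6 was 8.08 to 9.35 CPM in wild-type males and 6.07 to 6.89 CPM in Pou2f3-/- males, and its part in the level of Stap1 was not tested.

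Cftr, Atp6v0d2 and Atp6v1c2 overlapped between the male groups and did not pass the test. Cftr was at 55.7, 43.2 and 50.5 CPM in wild-type males and at 74.7, 35.6 and 35.01 CPM in Pou2f3-/- males, where replicate 1 was the highest of all 12 libraries and replicates 2 and 3 were below every wild-type male. The log2 fold change was -0.04, with a 95% interval from -0.61 to 0.53. Atp6v1c2, the restricted isoform of subunit C, was at 11.9, 9.95 and 13.0 CPM in wild-type males and at 13.1, 5.43 and 6.30 CPM in Pou2f3-/- males. Its difference was -0.49 (95% interval -1.08 to 0.10), and without Pou2f3-/- male replicate 1 it was -0.98 (adjusted p = 0.019). Atp6v0d2, the restricted isoform of membrane subunit d, was at 44.2, 50.1 and 61.3 CPM in wild-type males and at 53.7, 40.6 and 34.96 CPM in Pou2f3-/- males, a difference of -0.27 (95% interval -0.69 to 0.15). The summed level of 8 macrophage markers was 76.6 to 91.8 CPM in wild-type males and 94.5 to 165 CPM in Pou2f3-/- males, and its part in the level of Atp6v0d2 was not tested.

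The calls in males stood close to the threshold. Without Pou2f3-/- male replicate 1, 5 members were called, the 3 named with Ascl3 and Atp6v1c2. Over all genes this fit called 635, against 42 in the main test. DESeq2 called 5, the 3 named with Ascl3 and Stap1, and 399 over all genes. None was called without Pou2f3-/- male replicate 2 or 3 or without any 1 of the wild-type males. The same held without Pou2f3-/- female replicate 1 or wild-type female replicate 3. With Pou2f3-/- female replicate 3 or wild-type female replicate 2 left out, 1 was called. Over all genes 13 to 31 passed in the fits with no member called, and 33 and 40 in those with 1. The log2 fold change of Foxi1 stayed between -0.95 and -0.78 in all 22 alternatives, that of Foxi2 between -1.07 and -0.82, that of Ascl3 between -1.48 and -1.002, that of Atp6v1b1 between -1.19 and -0.89 and that of Stap1 between -0.83 and -0.60.

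**Figure D2:**
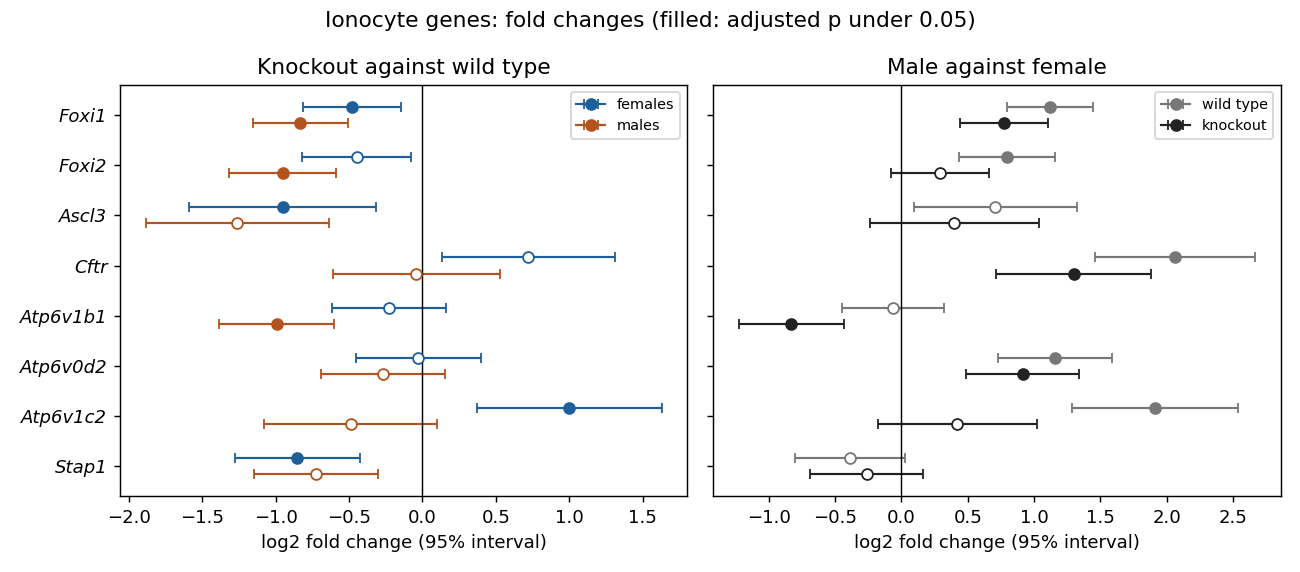
Log2 fold change of each ionocyte gene with its 95% interval, Pou2f3-/- against wild type in each sex (left) and male against female in each genotype (right); filled points passed an adjusted p of 0.05. All genes but Cftr and Atp6v1c2 are below 0 in both sexes on the left, Atp6v0d2 by little (-0.03 and -0.27), while Atp6v1c2 is above 0 in females (1.00) and below 0 in males (-0.49).

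In females, many more genes differed between genotypes: 36.9% of all genes passed the test, 17.6% higher and 19.3% lower in Pou2f3-/-. Of the 8 ionocyte genes, 4 passed. Foxi1, Ascl3 and Stap1 fell and Atp6v1c2 rose, and the median of the 8 was -0.34 against 0.03 over all genes tested. The groups did not overlap for 6 of the 8, where 49.3% of all genes did not overlap. Of these, 2 were higher in Pou2f3-/- (25.2% of all genes) and 4 were lower (24.1%). With a background this large, the counts say little of the members in particular.

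Foxi1 was at 6.81, 8.35 and 6.83 CPM in wild-type females and at 4.42, 6.73 and 4.55 CPM in Pou2f3-/- females, where the highest knockout was just below the lowest wild type. The log2 fold change was -0.48 (SE 0.15, adjusted p = 0.027). With library sizes from total counts alone, which moved the median of all genes to 0.53, it was 0.0044, and relative to that median it was -0.52. Besides total counts, 5 of 22 alternatives lost the call of Foxi1. With a library left out its log2 fold change was -0.76 to -0.42. Foxi2 was at 4.82, 4.96 and 4.62 CPM in wild-type females and at 3.14, 4.45 and 2.94 CPM in Pou2f3-/- females, a difference of -0.45 (SE 0.17, adjusted p = 0.056) that did not pass and that was 0.037 with total counts alone. It passed in 6 of 22 alternatives, DESeq2 among them (adjusted p = 0.032), and was -0.71 (adjusted p = 0.0048) without Pou2f3-/- female replicate 2. Ascl3 was at 5.80, 9.69 and 6.91 CPM in wild-type females and at 2.62, 5.49 and 3.41 CPM in Pou2f3-/- females. It fell by 0.95 on the log2 scale (SE 0.29, adjusted p = 0.023), and with total counts alone the difference was -0.47 and did not pass (adjusted p = 0.16). Pou2f3-/- female replicate 2 was the highest of its group in all 3 transcription factors.

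Stap1 was at 14.7, 11.4 and 15.5 CPM in wild-type females and at 5.63, 10.1 and 7.20 CPM in Pou2f3-/- females. The groups did not overlap, and the log2 fold change was -0.85 (SE 0.20, adjusted p = 0.0050), or -0.37 with total counts alone, which did not pass (adjusted p = 0.12). The summed level of the 6 B cell markers was 5.50 to 10.02 CPM in wild-type females and 4.85 to 7.37 CPM in Pou2f3-/- females, most of it from Blnk, which overlapped (log2 fold change -0.25, adjusted p = 0.35). The other 5 had at most 17 counts in any female library. All 8 macrophage markers had negative log2 fold changes in females, with a median of -0.67. Of these 8, 4 fell: Adgre1 (-1.59), Cx3cr1 (-0.89), C1qa (-0.77) and C1qb (-0.76), with adjusted p from 0.033 to 0.040, although the groups overlapped. Wild-type female replicate 1 stood apart, with Adgre1 at 43.4 CPM against 6.39 and 8.94 CPM in the other wild-type females, and without it none of the 8 passed, 7 were negative and the median was -0.31. The summed level of the 8 was 89.4 to 209 CPM in wild-type females and 72.6 to 109 CPM in Pou2f3-/- females. Stap1 still passed without that library. The part of these cells in the levels of Stap1 and Atp6v0d2 was not tested.

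Atp6v1c2 was at 3.99, 2.67 and 2.56 CPM in wild-type females and at 6.73, 5.88 and 5.94 CPM in Pou2f3-/- females. It rose 2.00-fold (log2 fold change 1.00, SE 0.29, adjusted p = 0.017), and every knockout was above every wild type. Cftr was at 8.07, 14.7 and 13.1 CPM in wild-type females and at 19.6, 19.3 and 20.1 CPM in Pou2f3-/- females, without overlap. Its difference of 0.72 (SE 0.27) was just outside the threshold (adjusted p = 0.054), and it passed in 10 of 22 alternatives, DESeq2 among them (adjusted p = 0.029). With a library left out the difference of Cftr was 0.44 to 0.85, and with total counts alone it was 1.24. Its adjusted p over the alternatives reached 0.21. Atp6v1b1 was at 9.04, 13.8 and 10.8 CPM in wild-type females and at 10.9, 9.45 and 8.32 CPM in Pou2f3-/- females, and its groups overlapped (log2 fold change -0.23, 95% interval -0.62 to 0.16). Atp6v0d2 was at 18.7, 28.1 and 23.2 CPM in wild-type females and at 20.9, 28.3 and 19.3 CPM in Pou2f3-/- females, again with overlap (log2 fold change -0.03, 95% interval -0.46 to 0.40).

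The number of female calls fell to 1 without Pou2f3-/- female replicate 1 or wild-type female replicate 2. It fell to 2 without Pou2f3-/- female replicate 3. Over all genes 5150, 5643 and 5227 passed in these fits, against 6611 in the main test. The number of member calls rose to 6 without Pou2f3-/- male replicate 2. Foxi1 and Ascl3 lost their calls without Pou2f3-/- female replicate 1 or 3 or wild-type female replicate 2. Atp6v1c2 lost its call without Pou2f3-/- female replicate 1 or wild-type female replicate 2 or 3. Foxi1 also lost its call with upper-quartile scaling (adjusted p = 0.070) and with a fit within the groups compared (adjusted p = 0.068). Total counts alone called 2, both higher, and DESeq2 called 6, the 4 named with Foxi2 and Cftr.

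The difference between the female and male effects of the knockout was tested as an interaction, which 25.7% of all genes passed. Of the 8 ionocyte genes, 2 passed. For Atp6v1c2 the female effect exceeded the male effect by 1.49 on the log2 scale (SE 0.40, adjusted p = 0.019), and this passed in all 21 alternatives. For Atp6v1b1 it exceeded it by 0.77 (SE 0.25, adjusted p = 0.043), and this was lost in 12 of the 21. The interactions of the transcription factors did not pass: 0.35 for Foxi1 (95% interval -0.11 to 0.81), 0.51 for Foxi2 (-0.01 to 1.02) and 0.31 for Ascl3 (-0.57 to 1.19). That of Stap1 was -0.13 (-0.72 to 0.47), that of Cftr 0.76 (-0.06 to 1.58) and that of Atp6v0d2 0.24 (-0.36 to 0.84). Without Pou2f3-/- male replicate 1, the interaction of Cftr was 1.21 and passed (adjusted p = 0.0089).

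The second question was how the ionocyte genes differ between the sexes, whose glands differ in their ducts: males have larger granular convoluted tubules. In wild-type mice 36.5% of all genes passed the test, 20.5% higher and 16% lower in males. Of the 8 ionocyte genes, 5 were higher in males, without overlap, and none was lower. Of all genes 47.6% did not overlap, 26.7% higher and 20.9% lower in males. Of 5 markers of the granular convoluted tubule, 4 were higher in wild-type males and 1 lower, with a median of 5.98 on the log2 scale, and of 6 acinar markers 5 were lower, with a median of -1.23; their part in the levels of the ionocyte genes was not tested. Cftr rose most, from 8.07 to 14.7 CPM in females to 43.2 to 55.7 CPM in males (4.17-fold, log2 fold change 2.06, SE 0.28, adjusted p = 9.1e-05). Atp6v1c2 was 3.76-fold higher (SE 0.29 on the log2 scale, adjusted p = 2.3e-04), Atp6v0d2 2.23-fold (SE 0.20, adjusted p = 6.0e-04), Foxi1 2.17-fold (SE 0.15, adjusted p = 9.1e-05) and Foxi2 1.74-fold (SE 0.17, adjusted p = 0.0025). Ascl3 was 1.63-fold as high in males but overlapped between the sexes (adjusted p = 0.069). It passed in 5 of 22 alternatives, and its log2 fold change over all of them was 0.32 to 1.57. Atp6v1b1 (-0.06) and Stap1 (-0.39) had estimates below 0, which became 0.85 and 0.49 with total counts alone, where the median of all genes was 0.95.

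In Pou2f3-/- mice 43.5% of all genes passed between the sexes. Of the 8 ionocyte genes, 4 passed, 3 higher in males and 1 lower, and these were also the 4 without overlap (54.8% of all genes). Cftr was 2.46-fold higher in males (log2 fold change 1.30, SE 0.27, adjusted p = 0.0019), Atp6v0d2 1.88-fold (0.91, SE 0.20, adjusted p = 0.0025) and Foxi1 1.71-fold (0.77, SE 0.15, adjusted p = 0.0014). Atp6v1b1 was lower in Pou2f3-/- males than in Pou2f3-/- females (-0.83, SE 0.18, adjusted p = 0.0028), a call lost with total counts alone (-0.55, adjusted p = 0.070). Foxi2 (0.29), Ascl3 (0.40), Atp6v1c2 (0.42) and Stap1 (-0.26) overlapped between the sexes and did not pass. The comparisons between the sexes and those between genotypes share their libraries, and these values are therefore not separate evidence.

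For subunits B, C and d of the V-ATPase, the restricted isoform was set against its widely used partner as a share of both, per kb of transcript; these shares are descriptions without a test. Atp6v1b1 made up 38.3, 50.7 and 44.8% of subunit B transcripts in wild-type females, with Atp6v1b2 as the rest, and 53.0, 48.9 and 48.2% in Pou2f3-/- females. In wild-type males its share was 40.8, 39.2 and 44.4%, and in Pou2f3-/- males 30.5, 24.4 and 24.5%, below all other libraries. Atp6v1b2 itself differed between the male genotypes by -0.03 on the log2 scale, which did not pass (adjusted p = 0.93).

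The share of Atp6v1c2 in subunit C, with Atp6v1c1 as its partner, was 34.1, 25.7 and 24.1% in wild-type females and 56.9, 52.4 and 52.3% in Pou2f3-/- females. In wild-type males it was 66.0, 57.8 and 65.6%, and in Pou2f3-/- males 63.4, 47.1 and 49.2%. Wild-type females thus stood below all 9 other libraries. In females Atp6v1c1 moved the other way, with a log2 fold change of -0.57 (SE 0.10, adjusted p = 0.0011). This fall depended on the scaling. By total counts alone Atp6v1c1 was at 14.8 ± 1.2 CPM in wild-type and 14.1 ± 0.8 CPM in Pou2f3-/- females (SD, n = 3). The share of Atp6v0d2 in subunit d, with Atp6v0d1 as its partner, had means of 58.7 ± 4.7% in wild-type females, 68.2 ± 4.9% in Pou2f3-/- females, 74.0 ± 3.3% in wild-type males and 68.7 ± 4.7% in Pou2f3-/- males (SD, n = 3). The wild-type sexes did not overlap in this share, while the genotypes overlapped in both sexes.

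**Figure D3:**
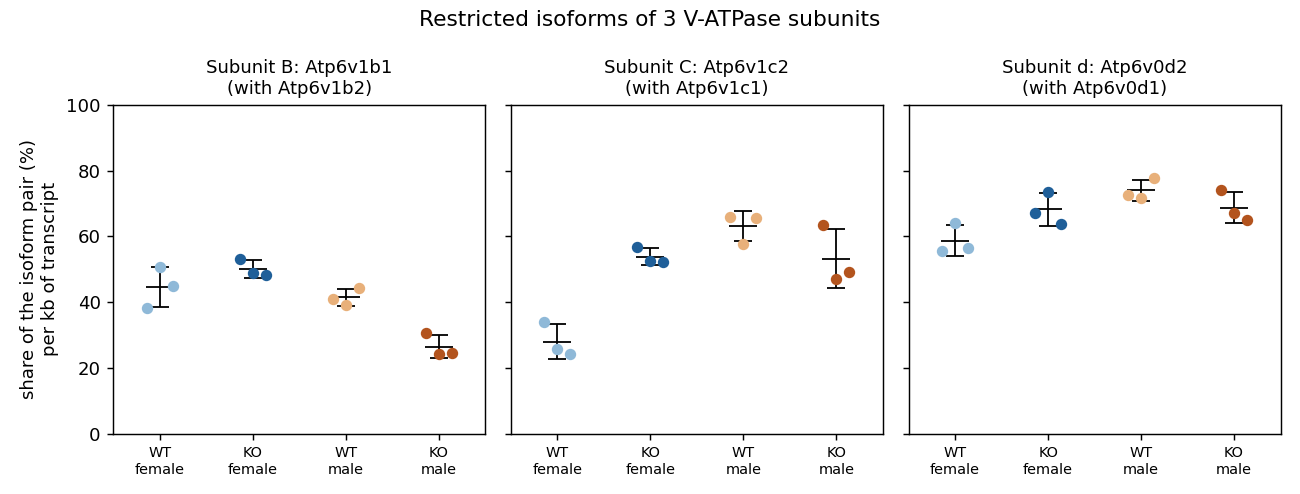
Share of the restricted isoform in each pair of V-ATPase subunit genes, in percent per kb of transcript, in each mouse (points) with the group mean and SD. The 3 Pou2f3-/- males have the lowest Atp6v1b1 shares (24.4 to 30.5%) and the 3 wild-type females the lowest Atp6v1c2 shares (24.1 to 34.1%).

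The other subunits of the V-ATPase and its accessory proteins, 22 genes of which 20 were tested, centred on 0 in males, with a median difference of -0.00058 on the log2 scale. Farthest from it was Atp6v1g3, a restricted isoform of subunit G, which was lower without overlap in Pou2f3-/- males at a low level (-0.81, SE 0.56) and did not pass (adjusted p = 0.63). None of the 20 was called between the male genotypes by edgeR or DESeq2, 0 had an unadjusted p under 0.05 in edgeR. In females 15 of the 20 passed, against 36.9% of all genes, 13 lower and 2 higher in Pou2f3-/-, with a median of -0.52, but with total counts alone 2 passed, both higher. The 5 with the smallest p were Atp6ap2 (-0.75), Atp6v0d1 (-0.63), Atp6v1b2 (-0.53), Atp6v1d (-0.68) and Atp6v0c (-0.67), with adjusted p from 3.8e-04 to 0.0010. The 2 that rose were Tcirg1 (0.74) and Atp6v1g2 (0.95). The interaction passed for 11 of the 20, against 25.7% of all genes, 10 of them with the lower effect in females, led by Atp6v0d1 (-0.72, adjusted p = 0.0046), for 1 with total counts alone, and for 5 to 14 with a library left out (5 without wild-type male replicate 1, 6 without wild-type male replicate 3, 7 without Pou2f3-/- male replicate 3).

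Between wild-type sexes 8 of these 20 were higher in males and 2 lower, against 20.5% and 16% of all genes. The 5 with the smallest p were Atp6v0e (1.12), Atp6v1e1 (1.23), Atp6v1g3, Atp6v0a1 (0.39) and Atp6ap1 (0.49). With total counts alone 18 were higher and none was lower, where 12415 of 17893 genes passed and the median of all genes was 0.95. Atp6v1g3 had 0, 3 and 3 counts in wild-type females and 1, 0 and 0 in Pou2f3-/- females, at or under the limit, but 41, 36 and 37 counts in wild-type males and 26, 19 and 11 in Pou2f3-/- males. In Pou2f3-/- mice 16 of the 20 were higher in males and 1, Tcirg1, was lower (-1.36), against 23.2% and 20.3% of all genes.

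Of 23 other genes of ionocytes and kidney intercalated cells, 17 were tested. Foxi3, Rhcg and Oxgr1 had 0 counts in every library. In males 15 of the 17 had negative log2 fold changes, with a median of -0.56, and 9 did not overlap and were lower in Pou2f3-/-, against 7.95% of all genes. The one that passed, where 0.235% of all genes did, was Dmrt2, a transcription factor, at 4.85, 7.20 and 6.16 CPM in wild-type males and 2.23, 2.84 and 2.15 CPM in Pou2f3-/- males (log2 fold change -1.34, SE 0.19, adjusted p = 0.011). The count of 1 was 0 without Pou2f3-/- male replicate 3 or wild-type male replicate 3. It was 6 without Pou2f3-/- male replicate 1, and 5 with DESeq2 or with no low-count filter. Over all genes 15, 13, 635, 399 and 389 passed in these fits, in this order, against 42 in the main test. Hepacam2, a cell surface protein, was at 12.3, 17.2 and 16.5 CPM in wild-type males and at 9.89, 6.32 and 7.16 CPM in Pou2f3-/- males, without overlap and without passing the test (-0.98, SE 0.22, adjusted p = 0.11).

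In females 2 of the 17 passed, against 36.9% of all genes, 1 in each direction, while with total counts alone 2 passed and both were higher. Hepacam2 fell by 0.77 on the log2 scale (SE 0.23, adjusted p = 0.019). The interaction passed for 3 of the 17, against 25.7% of all genes. The 3 included Dmrt2 (0.98, adjusted p = 0.019) and Kcnma1, a potassium channel (0.61, adjusted p = 0.044). The count of 3 was 1 to 4 with a library left out and 2 to 8 with the other alternatives. Between wild-type sexes 8 of the 17 were higher in males and 3 lower, against 20.5% and 16% of all genes. Among them were P2ry14 (3.44), Tfcp2l1 (1.74), Dmrt2 (0.84) and Car2 (-0.85). Tfcp2l1 was far above Foxi1 in level, with means of 554 against 7.33 CPM in wild-type females and 1855 against 15.9 CPM in wild-type males. With total counts alone 13 were higher and none lower, where 12415 of 17893 genes passed and the median of all genes was 0.95. In Pou2f3-/- mice 3 were higher and 3 lower, against 23.2% and 20.3% of all genes, led by P2ry14 (3.31), Kcnma1 (-1.04), Tfcp2l1 (1.37), Slc4a1 (2.72) and Car2 (-0.86).

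**Figure D4:**
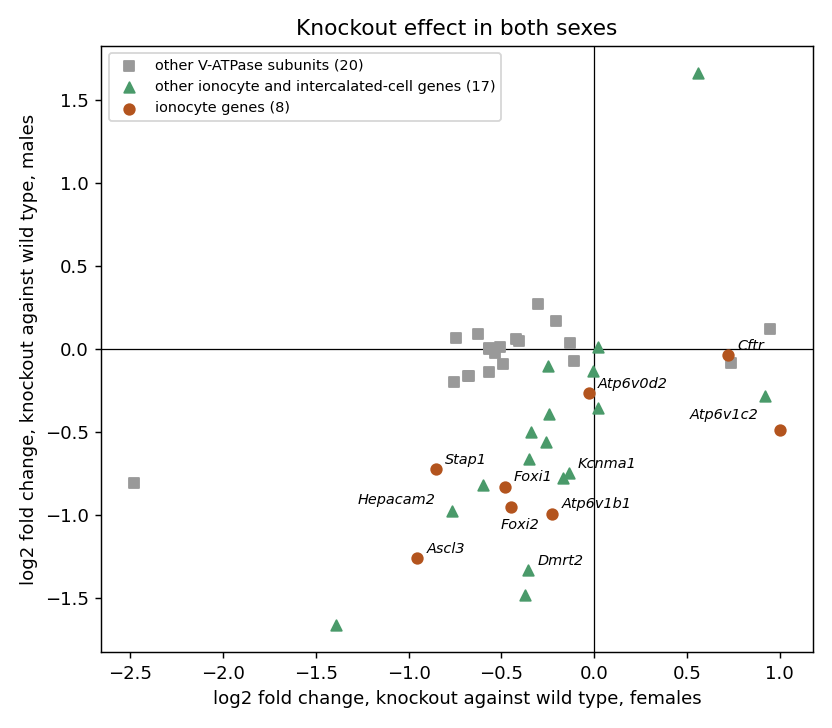
Log2 fold change of Pou2f3-/- against wild type in females (horizontal) and males (vertical) for the 8 ionocyte genes, 17 other ionocyte and intercalated-cell genes and 20 other V-ATPase subunits that were tested. In males most V-ATPase points lie near 0 (median -0.00058), while the medians of the other lists are -0.78 and -0.56.

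Over the 12 libraries, log2 CPM of Foxi1 ran with that of Foxi2 (Pearson r = 0.93) and Ascl3 (r = 0.85), and Foxi2 with Ascl3 (r = 0.91). These points share their groups, and the deviations from the group means gave r of 0.78, 0.79 and 0.69. Foxi1 also ran with Atp6v0d2 (r = 0.86, and 0.63 for the deviations). Cftr ran with Atp6v0d2 (r = 0.89) and Atp6v1c2 (r = 0.86) and not with Stap1 (r = -0.44), and the deviations gave r of 0.64, 0.46 and -0.02. Cftr and Atp6v1b1 had r = -0.31 over all libraries, while their deviations within groups had r = 0.79. All correlations are descriptions over 12 libraries.

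The 5 genes with the pattern most like Foxi1 were Acsl6 (r = 0.96), Ccbe1 (r = 0.96), Aldh1a3 (r = 0.95), Galnt11 (r = 0.95) and Mc4r (r = 0.95). Their deviations from the group means followed those of Foxi1 less closely, with r of 0.54, 0.77, 0.40, 0.34 and 0.63. For Ascl3 they were Arhgap32 (r = 0.97), Hepacam2 (r = 0.96), Il34 (r = 0.94), Cpxm2 (r = 0.94) and Pgm5 (r = 0.94), with r of the deviations from 0.70 to 0.88. For Cftr they were Stx3, Med23, Kdm1a, Cobl and Xpc, with r from 0.97 to 0.98, and from 0.77 to 0.88 for the deviations. No gene was named for more than 1 of the 3.

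**Figure D5:**
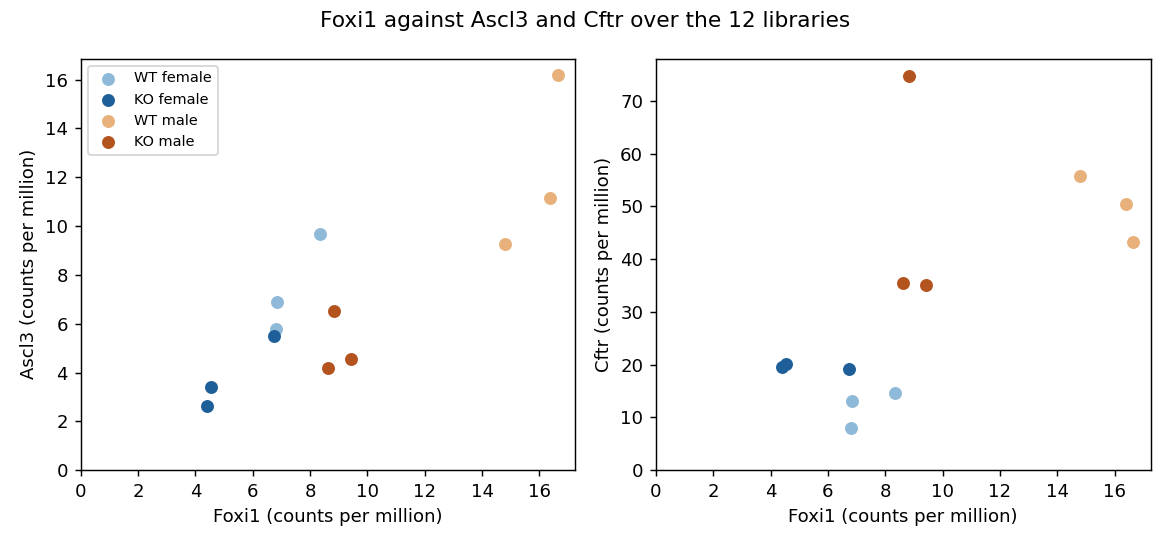
Level of Ascl3 (left) and Cftr (right) against Foxi1, in TMM-adjusted CPM on linear axes from 0, for each of the 12 mice. Foxi1 and Ascl3 run together (r = 0.85 of log2 CPM), while 1 Pou2f3-/- male has the highest Cftr (74.7) at a Foxi1 level of 8.83.

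The 250 bases before each annotated start were searched on both strands for the forkhead core in its forms TGTTTAC and TATTTAC, since Foxi1 and Foxi2 are forkhead factors and several members ran with them, and for CAGCTG, a form of the E box that basic helix-loop-helix factors recognise. At least 1 forkhead form was in 3 of the 8 windows and in 5.36% of 21757 windows of protein-coding genes. TGTTTAC alone was in 2.72% of these, TATTTAC in 2.75% and CAGCTG in 11.9%. The 3 windows are shown because they hold the matches, in capitals, and no match overlapped another; CAGCTG was in none of the 8. A match is a description of the letters and not of binding. The windows are from GRCm39 and are written 5′ to 3′ on the strand of the gene: Ascl3 at chr7:109330934-109331183 (minus strand), with TATTTAC on the opposite strand 237 to 231 bases before the start; Atp6v1b1 at chr6:83719717-83719966 (plus strand), with TGTTTAC 66 to 60 bases before the start; and Atp6v0d2 at chr4:19922615-19922864 (minus strand), with TATTTAC 197 to 191 bases before the start.
Ascl3: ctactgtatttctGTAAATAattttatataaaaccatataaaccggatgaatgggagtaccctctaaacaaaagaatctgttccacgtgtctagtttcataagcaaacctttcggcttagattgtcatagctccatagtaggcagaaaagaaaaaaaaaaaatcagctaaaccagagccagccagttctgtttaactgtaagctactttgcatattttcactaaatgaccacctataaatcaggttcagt
Atp6v1b1: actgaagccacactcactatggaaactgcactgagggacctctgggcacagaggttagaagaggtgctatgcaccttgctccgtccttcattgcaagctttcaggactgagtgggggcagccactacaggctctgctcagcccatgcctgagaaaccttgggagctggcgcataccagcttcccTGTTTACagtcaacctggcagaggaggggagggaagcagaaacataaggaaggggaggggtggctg
Atp6v0d2: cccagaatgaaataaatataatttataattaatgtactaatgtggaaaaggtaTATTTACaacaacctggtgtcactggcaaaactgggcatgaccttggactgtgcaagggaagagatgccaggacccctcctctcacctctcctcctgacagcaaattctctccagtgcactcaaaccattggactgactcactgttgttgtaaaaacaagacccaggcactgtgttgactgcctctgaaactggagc
Of these 3 genes, Atp6v1b1 fell in males, Ascl3 fell in females, and Atp6v0d2 passed in neither sex.

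The other genes lie, on GRCm39, at chr11:34154338-34158089 (Foxi1, minus strand, 2 exons), chr7:135012037-135015351 (Foxi2, plus strand, 2 exons), chr6:18170686-18322767 (Cftr, plus strand, 27 exons), chr12:17334718-17379360 (Atp6v1c2, minus strand, 13 exons) and chr5:86219605-86253984 (Stap1, plus strand, 9 exons). Exons of Cftr, Atp6v0d2 and Atp6v1c2 overlap on the other strand with exons of Gm15592, Gm68467 and Pdia6. The libraries were stranded, but the strand setting of the quantification is not given in the sources used here.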

How the data were processed

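Paired-end, stranded libraries were made from RNA of snap-frozen SMGs; the labels call it polyA RNA and the methods ribosomal RNA-depleted total RNA. The authors assigned reads to Gencode M35 transcripts on GRCm39 with Salmon 1.10.1 and deposited estimated counts per gene. The authors also deposited a normalized signal, these counts over gene-specific and library-specific factors whose making is not given in the sources used here; it served as an alternative. Groups came from the sample titles.

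Here the expected counts were rounded to whole numbers, and the main test was that of edgeR 4.0.16 with limma 3.58.1, run in R 4.3.3 (TMM, filterByExpr, 4 group means over 12 libraries, 5 contrasts, adjusted p of 0.05). Intervals are at 95%, with a prior count of 2 in log2 CPM. Genes named are all members, their isoform partners, up to 5 genes per list and contrast with the smallest p past the threshold, the 5 genes most like Foxi1, Ascl3 and Cftr, and Pou2f3; beyond the rule, Hepacam2, Krt7, Krt8, Krt18, the 2 V-ATPase genes that rose, Blnk, the macrophage markers that fell and genes near 0 were named after their values were seen. Some genes of the lists are not reported here by name. Members and lists were chosen with earlier results of these data known. Lengths are those of the longest Gencode M39 transcript, and that annotation holds 55563 of the 56065 identifiers. Alternatives were other scalings and filters, DESeq2 1.42.0, a fit within the groups compared, a replicate block and each library left out; offsets from the authors' factors were added after seeing the data. The steps were tested on simulated data. Figures were made with Python and matplotlib.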

Additional observations from a re-analysis of the deposited data

Results flagged for a closer look

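The effect of the knockout differed between the sexes, by the interaction test of edgeR's quasi-likelihood fit, for 2 of the 8 ionocyte genes, a share like the 25.7% of all genes tested. For Atp6v1c2 the effect in females exceeded that in males by 1.49 on the log2 scale (adjusted p = 0.019, between 0.0016 and 0.048 over the alternatives), with 3 of 3 Pou2f3-/- females above every wild-type female. For Atp6v1b1 the difference was 0.77 (adjusted p = 0.043, between 0.0086 and 0.13 over the alternatives), with 3 of 3 Pou2f3-/- males below every wild-type male. No outlier test was run on groups of 3 mice.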

How the results depend on the processing

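Each group had 3 mice, so 1 library could decide a call near the threshold. In males 3 ionocyte genes were called. The count was 1 with the 20 most abundant genes left out of the library sizes, 1 with a replicate block, 1 with a fit within the groups compared, 1 with offsets from the authors' factors, 5 with no low-count filter and 5 with DESeq2, and 0 to 5 with a library left out. Over all genes 42 were called in males, 399 by DESeq2, 389 with no low-count filter and 13 to 635 with a library left out. In females the count of 4 was 2 with total counts only and 1 to 6 with a library left out. The interaction count of 2 was 1 with RLE normalization, 1 with the 20 most abundant genes left out, 1 with a replicate block, 6 with total counts only and 1 to 3 with a library left out. Between wild-type sexes the count of 5 was 8 with total counts only, where 12415 genes passed against 6523, 6 with a replicate block and 5 to 6 with a library left out. Between Pou2f3-/- sexes the count of 4 was 4 to 6 with a library left out; with total counts only it lost Atp6v1b1 and gained Foxi2 and Ascl3.

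The replicate numbers name separate mice, and libraries with the same number did not deviate together (correlations of -0.13 to 0.27 over the 4 pairs of groups), so the block is only an alternative; it gave 4 calls in females.

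Total counts alone moved the median of all genes to 0.53 in females, -0.16 in males, 0.64 for the interaction, 0.95 between wild-type sexes and 0.25 between Pou2f3-/- sexes, and upper-quartile scaling moved it to 0.13 in females, 0.11 for the interaction and -0.18 between Pou2f3-/- sexes. With total counts alone the direction turned in females for Foxi1 (0.0044), Foxi2 (0.037), Atp6v1b1 (0.29) and Atp6v0d2 (0.47), for the interaction of Stap1 (0.45), between wild-type sexes for Atp6v1b1 (0.85) and Stap1 (0.49), and between Pou2f3-/- sexes for Stap1 (0.034). Atp6v0d2 in females turned with upper-quartile scaling (0.078) and with at least 10 counts in every library (0.010), and the Stap1 interaction with the authors' factors (0.099). With a library left out, signs turned for Atp6v0d2 in females (-0.26 to 0.078), Cftr in males (-0.49 to 0.15), the interactions of Ascl3 (-0.13 to 0.52) and Atp6v0d2 (-0.022 to 0.42), Atp6v1b1 between wild-type sexes (-0.24 to 0.090), and Atp6v1c2 (-0.069 to 0.66) and Stap1 (-0.39 to 0.048) between Pou2f3-/- sexes. The cause was not tested. Isoform shares were lower for counts without length, at 17.4 to 36.9% for Atp6v1b1, 12.5 to 38.5% for Atp6v1c2 and 47.6 to 64.5% for Atp6v0d2.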
